A study of Danio rerio with 4 samples.

Results

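miR-143 and miR-145 are small RNAs best known from smooth muscle, and they took 2 of the 245 rows in the table of zebrafish miRNAs, being every row named for either of them. Each had a single row with no arm in its name. Small RNA of whole Tuebingen zebrafish larvae was sequenced at 6 dpf under 4 conditions, with 1 library per condition, each from pooled larvae. The larvae were blank controls (labelled wild type), vehicle controls in DMSO, or were exposed to BDE47 at 5 μg/L or 500 μg/L. BDE47 is a brominated flame retardant, and both of its concentrations were given in the same solvent from the gastrula stage until sampling. The label of the blank control does not state whether it held DMSO. All larvae were of 1 wild-type strain, and the labels name no transgene or mutation. The question was whether exposure to BDE47 altered the levels of miRNAs. As no condition was replicated, no test of conditions was run, and each value describes these libraries alone.

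In mammals, miR-143 and miR-145 are cut from 1 shared primary transcript, which serum response factor and myocardin switch on in smooth muscle. There they favour the contractile state of the cell. miR-145 represses the transcription factors KLF4 and KLF5, and miR-143 represses ELK1, a partner of serum response factor. In zebrafish, miR-145 has been linked to the maturation of gut smooth muscle and gut epithelium through gata6. In RefSeq annotation of GRCz12tu, used here for names and neighbours only, mir145 overlapped the long non-coding RNA LOC137487609. The nearest genes on either side were fbxo38 and csnk1a1. As mir-143 was not matched in that annotation, its place relative to mir145 could not be read.

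The deposited values were read counts divided by 1 size factor per library, called normalized counts below. The reads behind them could be read back, since all values were whole multiples of 1 number per library. The listed miRNAs held between 8858169 and 10357704 reads per library. Intervals are 95% and were computed from these reads by the exact Clopper-Pearson method. They cover counting error only and not PCR copies of 1 molecule or the variation between batches of larvae. The identity of smooth muscle could not be checked against marker genes here, since the table held miRNAs only. In whole larvae, fewer cells of a type and less RNA per cell cannot be told apart.

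miR-143 was abundant and nearly level across the libraries, while miR-145 was lower in the vehicle control than in each of the other 3. miR-143 had 150907 normalized counts in blank larvae, 163838 in vehicle larvae, 157706 with 5 μg/L and 162071 with 500 μg/L. The highest library held 1.09 times the lowest. miR-145 had 4321 normalized counts in blank larvae, 2362 in vehicle larvae, 3799 with 5 μg/L and 4614 with 500 μg/L. Here the highest library held 1.95 times the lowest. The vehicle control stood apart at the low end, and the other 3 libraries lay within 1.21-fold of each other.

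**Figure D1:**
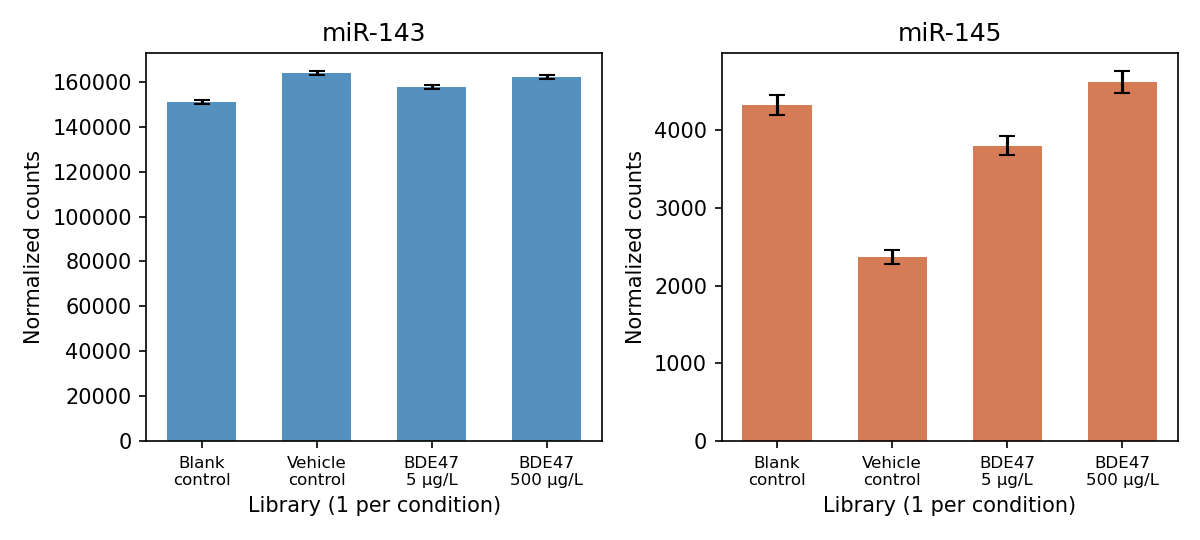
Normalized counts (vertical axes, from 0) of miR-143 and miR-145 in the 4 libraries, with 95% counting intervals as error bars. The miR-143 bars run from 150907 to 163838, whereas the miR-145 bar of the vehicle control, at 2362, is well below the other 3, at 3799 to 4614.

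Behind these values stood 140728 to 178794 reads of miR-143 and 2578 to 4372 reads of miR-145 per library. miR-143 took 1.59% of the listed reads in blank larvae (1.58 to 1.60%), 1.76% in vehicle larvae (1.75 to 1.77%), 1.56% with 5 μg/L (1.55 to 1.57%) and 1.65% with 500 μg/L (1.64 to 1.66%). It ranked between 9 and 11 among the 245 miRNAs in every library. miR-145 took 0.0455% in blank larvae (0.0441 to 0.0469%), 0.0254% in vehicle larvae (0.0244 to 0.0264%), 0.0375% with 5 μg/L (0.0364 to 0.0387%) and 0.0470% with 500 μg/L (0.0457 to 0.0484%). Its rank was 134 in the vehicle control and between 98 and 107 in the other libraries. These ranks compare read counts of RNAs of similar length, and differences in ligation between sequences were not measured.

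The spread of miR-143 over the 4 libraries had a coefficient of variation of 3.63%, which ranked 9 from the lowest of the 234 miRNAs that averaged 10 or more normalized counts. The median of those miRNAs was 11.3%. Counting alone would give miR-143 about 0.252%, so its small differences exceeded counting error. The coefficient of variation of miR-145 was 26.5%, which ranked 35 from the highest. Without the vehicle control it was 9.73%, close to the median of 9.44% over the same 3 libraries, and ranked 114 from the highest. As the library left out was the lowest for miR-145, a fall in its spread was fixed in advance. The fall is thus no separate evidence that 1 library set the spread, and the usual size of such a fall was not computed.

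The comparison of BDE47 with its vehicle placed miR-145 higher at both concentrations and miR-143 at almost the same level. At 500 μg/L, miR-145 had 1.95 times the normalized counts of the vehicle control (counting interval 1.86 to 2.05), a log2 ratio of 0.97. Ratios on the log2 scale were taken after adding 1 to each value. It ranked 4 from the highest among 234 miRNAs, whose median log2 ratio was 0.02. The ratio lay just under 2-fold and its counting interval held 2-fold, so depth alone does not place it on either side of that line. At 5 μg/L, miR-145 was 1.61 times the vehicle control (1.53 to 1.69), a log2 ratio of 0.69 that ranked 2 from the highest. miR-143 had a log2 ratio of -0.016 at 500 μg/L (-0.025 to -0.0058) and of -0.055 at 5 μg/L (-0.065 to -0.045), in the middle of the distribution both times.

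Neither member passed 2-fold against its vehicle in either comparison, where 8.97% of the 234 miRNAs did so at 500 μg/L and 2.99% did at 5 μg/L. At a 1.5-fold threshold, which 20.9% of the miRNAs passed in either direction at 500 μg/L and 15.4% at 5 μg/L, miR-145 was on the higher side at both concentrations. That side held 5.13% of the miRNAs at the higher concentration and 2.56% at the lower. The counting intervals of both members left out a log2 ratio of 0 in both comparisons. They did so for 79.1% of all miRNAs at 500 μg/L and 78.6% at 5 μg/L, so this says little of the members. Both comparisons share the vehicle control library.

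The control libraries also differed in miR-145, by less than 500 μg/L and its vehicle did and by more than 5 μg/L and its vehicle did. miR-145 in the vehicle control was 0.547 times its level in the blank control (0.520 to 0.574), a log2 ratio of -0.87. This was the lowest log2 ratio of the 234 miRNAs in that comparison, and the size of the ratio ranked 5. It did not pass 2-fold, which 1.28% of the miRNAs did, and was among the 2.14% beyond 1.5-fold on the lower side (13.2% in either direction). miR-143 in the vehicle control was 1.09 times the blank control (1.08 to 1.09), a log2 ratio of 0.12 in the opposite direction. DMSO and other differences between these libraries cannot be told apart.

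Set against the blank control, miR-145 at 500 μg/L was 1.07 times as abundant (1.02 to 1.11), a log2 ratio of 0.095 (rank 84 from the highest). At 5 μg/L it was 0.879 times the blank control (0.841 to 0.919), a log2 ratio of -0.19. miR-143 was 1.07 times (1.07 to 1.08) the blank control at 500 μg/L and 1.05 times (1.04 to 1.05) at 5 μg/L. Neither member passed 1.5-fold against the blank control, which 11.1% of the miRNAs did at 500 μg/L and 1.71% at 5 μg/L, and 2-fold was passed by 0.855% and 0% of the miRNAs. The direction of miR-145 at 5 μg/L therefore depended on the control, being above the vehicle control and below the blank control. At 500 μg/L it was above both, by 1.95-fold and by 1.07-fold.

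Between the concentrations, miR-145 at 500 μg/L was 1.21 times its level at 5 μg/L (1.16 to 1.27), and ranked 24 from the highest of the 234 miRNAs. miR-143 was 1.03 times its level at 5 μg/L (1.02 to 1.03). Neither passed 1.5-fold, which 8.97% of the miRNAs did, or 2-fold, which 1.71% did. This comparison does not involve the vehicle control library. The counting intervals of both members left out a log2 ratio of 0 here and in the comparisons with the blank control too, as did those of 67.5% of the miRNAs here, 71.4% for vehicle over blank, 72.2% for 500 μg/L over blank and 63.2% for 5 μg/L over blank. Among the 3 libraries with DMSO, miR-145 was ordered vehicle control, 5 μg/L and 500 μg/L from low to high, each step larger than counting error, but the blank control lay between the 2 concentrations.

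**Figure D2:**
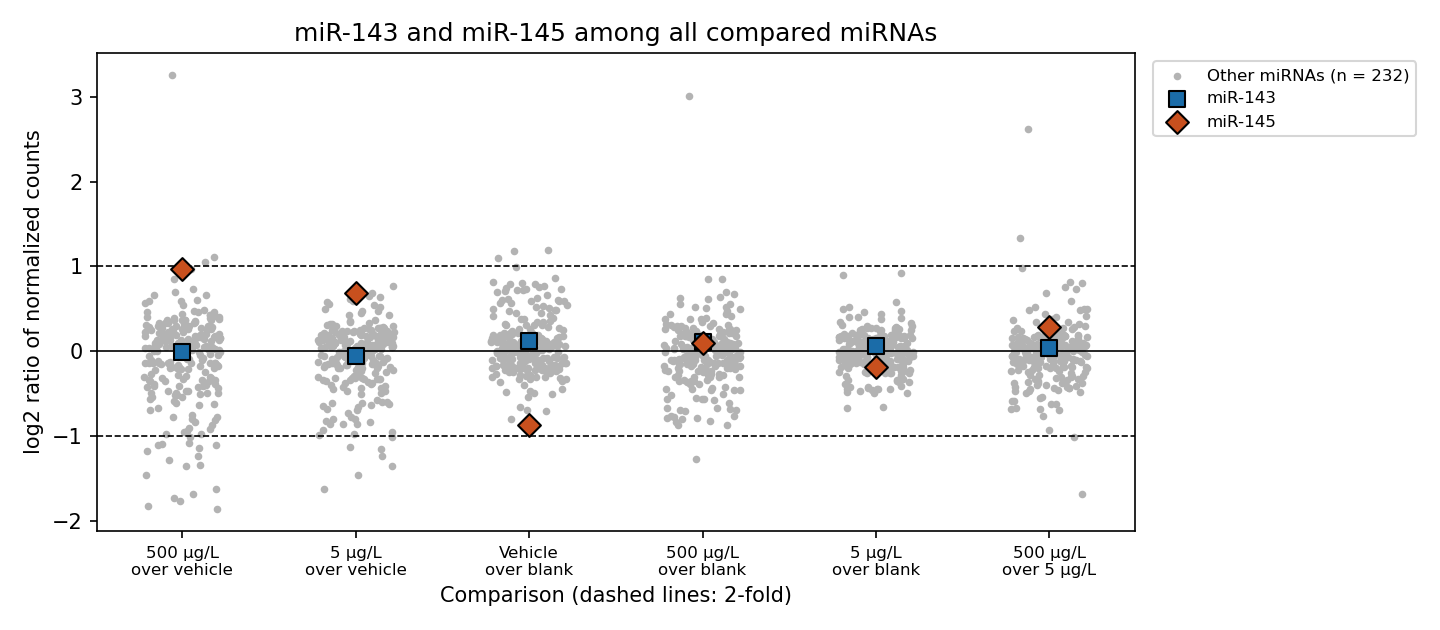
The log2 ratio of normalized counts (vertical axis) for 234 miRNAs in 6 comparisons of 1 library over another, with miR-143 as squares, miR-145 as diamonds, other miRNAs as grey points spread sideways at random, and dashed lines at 2-fold. miR-145 is near the top against the vehicle control (0.97 and 0.69), at the bottom for vehicle over blank (-0.87) and inside the cloud against the blank control (0.095 and -0.19), while miR-143 stays within 0.12 of 0.

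The ratio of the members inside a library does not depend on how libraries were scaled. There were 34.9 reads of miR-143 per read of miR-145 in blank larvae (33.8 to 36.0), 69.4 in vehicle larvae (66.7 to 72.1), 41.5 with 5 μg/L (40.2 to 42.9) and 35.1 with 500 μg/L (34.1 to 36.2). The intervals of the blank control and 500 μg/L overlapped, and that of the vehicle control lay far above the rest. miR-145 thus made up 1.42% of the pair's reads in the vehicle control and between 2.35% and 2.78% in the other libraries. The summed normalized counts of the pair, which are mostly miR-143, ran from 155228 to 166685.

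**Figure D3:**
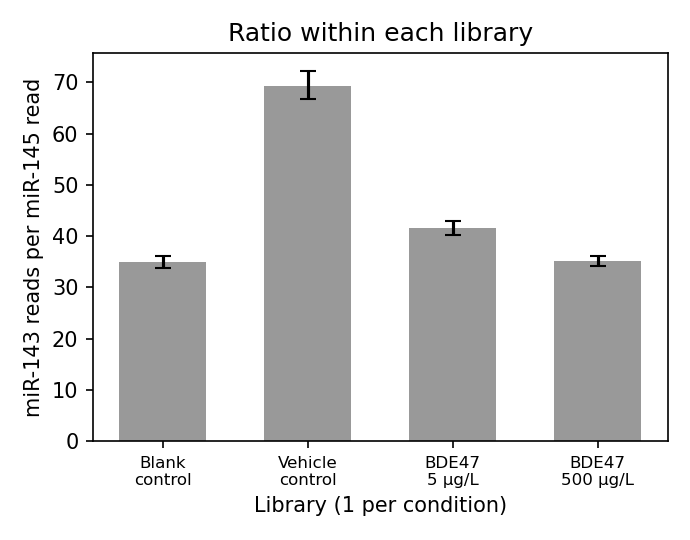
Reads of miR-143 per read of miR-145 in each library (vertical axis, from 0), with 95% counting intervals as error bars. The bar of the vehicle control is at 69.4, and the other 3 are between 34.9 and 41.5.

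The miRNAs most like each member were taken as the 3 with the smallest Euclidean distance between log2 profiles over the 4 libraries, each centred on its own mean. For miR-145 these were miR-214, miR-19d and miR-129-3p, at distances of 0.13, 0.21 and 0.41, where the median distance to the other 233 miRNAs was 0.79. miR-214, known in mammals from mesenchyme and the skeleton, had 15126 normalized counts in blank larvae, 9313 in vehicle larvae, 13728 with 5 μg/L and 16850 with 500 μg/L. miR-19d, a member of the miR-19 family, had 7351, 4501, 6899 and 7270 in the same order. miR-129-3p, a miRNA of neurons, had 809, 576, 982 and 1248. All 3 were lowest in the vehicle control, and 4 points that share 1 low library set this likeness.

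For miR-143 the most similar profiles were those of miR-27b (distance 0.056), miR-9-5p (0.061) and miR-454a (0.067), where the median distance was 0.31. These miRNAs were nearly level as well. miR-27b, for instance, had between 91890 and 99448 normalized counts in the 4 libraries. miR-145 ranked only 215 of 233 in likeness to miR-143, and miR-143 was near the middle in likeness to miR-145. The profiles of the members were thus farther apart than those of miR-143 and most other miRNAs. As miR-143 was nearly level, its distance to a miRNA mostly restates the spread of that miRNA. The rank of 215 is therefore no separate evidence about the pair.

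**Figure D4:**
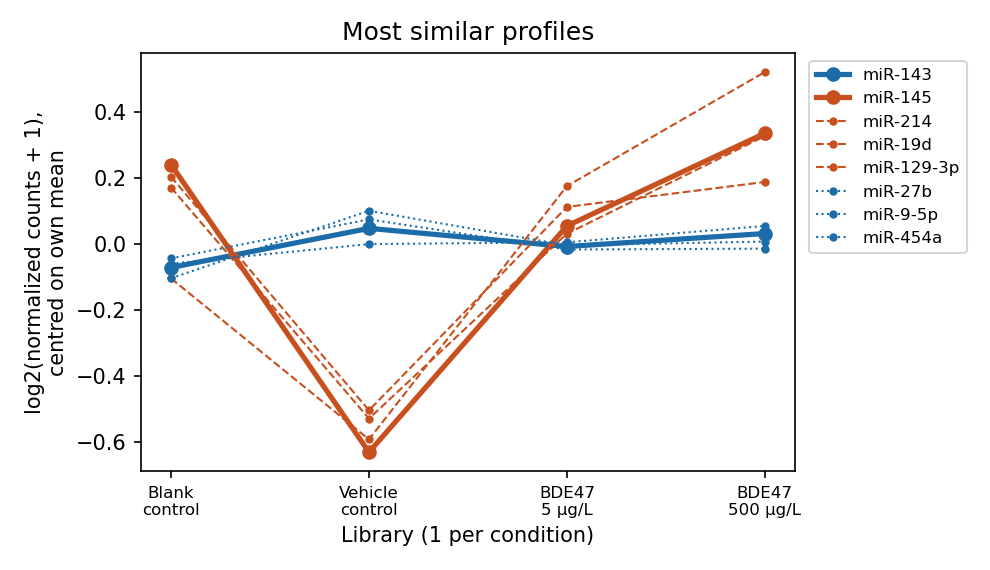
Profiles over the 4 libraries as log2(normalized counts + 1) centred on each miRNA's own mean (vertical axis), for miR-145 and its 3 most similar miRNAs (orange, dashed for those 3) and for miR-143 and its 3 (blue, dotted for those 3). The orange lines dip in the vehicle control and the blue lines stay close to 0.

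By a rule chosen after the values of miR-145 were seen, 2 of 234 miRNAs (0.855%) were more than 1.5-fold lower in the vehicle control than in each of the other libraries. These were miR-145 and miR-19d. The count depends on that threshold, which miR-214 missed at 1.47-fold, and it is no separate support for the level of miR-145. In the opposite direction, 16 (6.84%) were more than 1.5-fold higher in the vehicle control than in each of the others. The vehicle control was the lowest library for 76 miRNAs and the highest for 84, and the 500 μg/L library was the lowest for 76 and the highest for 74.

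The list of other smooth muscle miRNAs held miR-21, miR-22, miR-24, miR-26, miR-221 and miR-222, known in mammals to act on the growth or phenotype of vascular smooth muscle, in 9 rows. At 500 μg/L over the vehicle control, 1 of 9 was more than 1.5-fold higher and 0 were lower (5.13% and 15.8% of all miRNAs), with a median log2 ratio of 0.12 beside 0.02 over all miRNAs. At 5 μg/L, 0 of 9 were beyond 1.5-fold (15.4% of all miRNAs), with a median of -0.040, and for vehicle over blank 0 of 9 were (13.2%), with a median of 0.041. With 9 rows, these counts are near the shares over all miRNAs. The 1 higher row was miR-21, a miRNA of growth and injury in many cell types. It had 93197 normalized counts in blank larvae, 86059 in vehicle larvae, 69026 with 5 μg/L and 136432 with 500 μg/L. Like miR-145 it was highest at 500 μg/L, but it was lowest at 5 μg/L and not in the vehicle control. The miR-22 rows were lowest in the vehicle control, as miR-145 was, with smaller differences. miR-22a had 92866 normalized counts in blank larvae, 88958 in vehicle larvae, 90705 with 5 μg/L and 109567 with 500 μg/L, and miR-22b had 3984, 3415, 3534 and 3701 in the same order. The rows of miR-24, miR-26b, miR-221 and miR-222b were instead highest in the vehicle control. At 500 μg/L over the vehicle control their log2 ratios were -0.14, -0.060, -0.19 and -0.14 in that order. miR-222a had 0.20 and miR-26a had 0.16, and both were lowest in the blank control. In mammals, miR-221 and miR-222 promote smooth muscle growth.

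Striated muscle miRNAs (miR-1, miR-133, miR-206 and miR-499, 8 rows) had median log2 ratios of 0.030 at 500 μg/L over the vehicle control, 0.076 at 5 μg/L and 0.094 for vehicle over blank. At 500 μg/L, 1 of 8 was more than 1.5-fold higher and 1 lower, close to the 5.13% and 15.8% of all miRNAs. The higher row was miR-206, a skeletal muscle miRNA, with 3438 normalized counts in blank larvae, 2416 in vehicle larvae, 2582 with 5 μg/L and 3634 with 500 μg/L. Like miR-145 it was lowest in the vehicle control, but its 5 μg/L library was almost as low. The lower row was miR-133b-5p, with 12.7 normalized counts at 500 μg/L and 31.2 in the vehicle control. The rows of miR-133c and miR-133a-5p were also lowest in the vehicle control, while those of miR-1, miR-499 and miR-133b-3p were highest in it. miR-1, for instance, had log2 ratios of -0.35 at 500 μg/L and -0.49 at 5 μg/L over the vehicle control. The cartilage and mesenchyme list (miR-140, miR-199 and miR-214) held 5 rows. At 500 μg/L over the vehicle control, 1 of 5, miR-214, was more than 1.5-fold higher and 0 were lower. The shares of all miRNAs were 5.13% and 15.8%, and the median log2 ratio of the list was 0.19. For vehicle over blank, 1 of 5, again miR-214, was more than 1.5-fold lower, beside 2.14% of all miRNAs. Its log2 ratio there was -0.70, and the median of the list was -0.094. At 5 μg/L over the vehicle control, 0 of 5 were beyond 1.5-fold (15.4% of all miRNAs). miR-199-5p is known in mammals from a transcript that also yields miR-214. At 500 μg/L over the vehicle control, miR-199-5p had a log2 ratio of 0.19, while its other arm, miR-199-3p, had -0.20. The arms of miR-140 also differed in sign, with 0.34 for miR-140-3p and -0.32 for miR-140-5p.

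The miRNAs of endothelium, of gut and liver epithelium and of blood cells gave other values. For the 4 rows of miR-126, the miRNA of endothelium, the median against vehicle larvae was a log2 ratio of -0.23 for 500 μg/L and -0.41 for 5 μg/L, and 0.36 for vehicle over blank. miR-126a-5p had 10911 normalized counts in blank larvae, 15845 in vehicle larvae, 9843 with 5 μg/L and 11247 with 500 μg/L, so it was highest where miR-145 was lowest. miR-126b-5p was too, with almost the same values (10790, 15980, 9848 and 11116 in the same order). Whether these 5p rows are separate measurements was not tested. The 3p rows were instead highest at 500 μg/L, as miR-145 was. miR-126a-3p had 6038, 6822, 6545 and 8511 normalized counts in the same order, and miR-126b-3p had 1069, 1102, 1006 and 1131. The 4 rows of gut and liver epithelium (miR-122, miR-192 and miR-194) had a median of -0.37 at 500 μg/L, 0.13 at 5 μg/L and -0.12 for vehicle over blank. The 7 rows of blood cells (miR-142, miR-144, miR-150, miR-223 and miR-451) had a median of -1.18 at 500 μg/L, -0.80 at 5 μg/L and 0.62 for vehicle over blank. At 500 μg/L, 2 of the 7 were more than 1.5-fold higher and 4 lower, beside 5.13% and 15.8% of all miRNAs. At 5 μg/L, 0 were higher and 4 lower, beside 2.56% and 12.8%. The lower rows at both concentrations were miR-142a-5p, miR-142a-3p, miR-142b-5p and miR-144. The rows of miR-150, miR-223 and miR-451 went the other way at 500 μg/L over vehicle, with log2 ratios of 0.59, 0.48 and 0.67. For vehicle over blank, 4 of the 7 rows were more than 1.5-fold higher and 0 lower, beside 13.2% of all miRNAs in either direction. Against the blank control, 2 were that much lower and 0 higher at 500 μg/L, and 0 were beyond 1.5-fold at 5 μg/L. The shares of all miRNAs in either direction were 11.1% and 1.71%. The part of the blood, endothelial and gut miRNAs in the values of miR-145 was not tested.

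**Figure D5:**
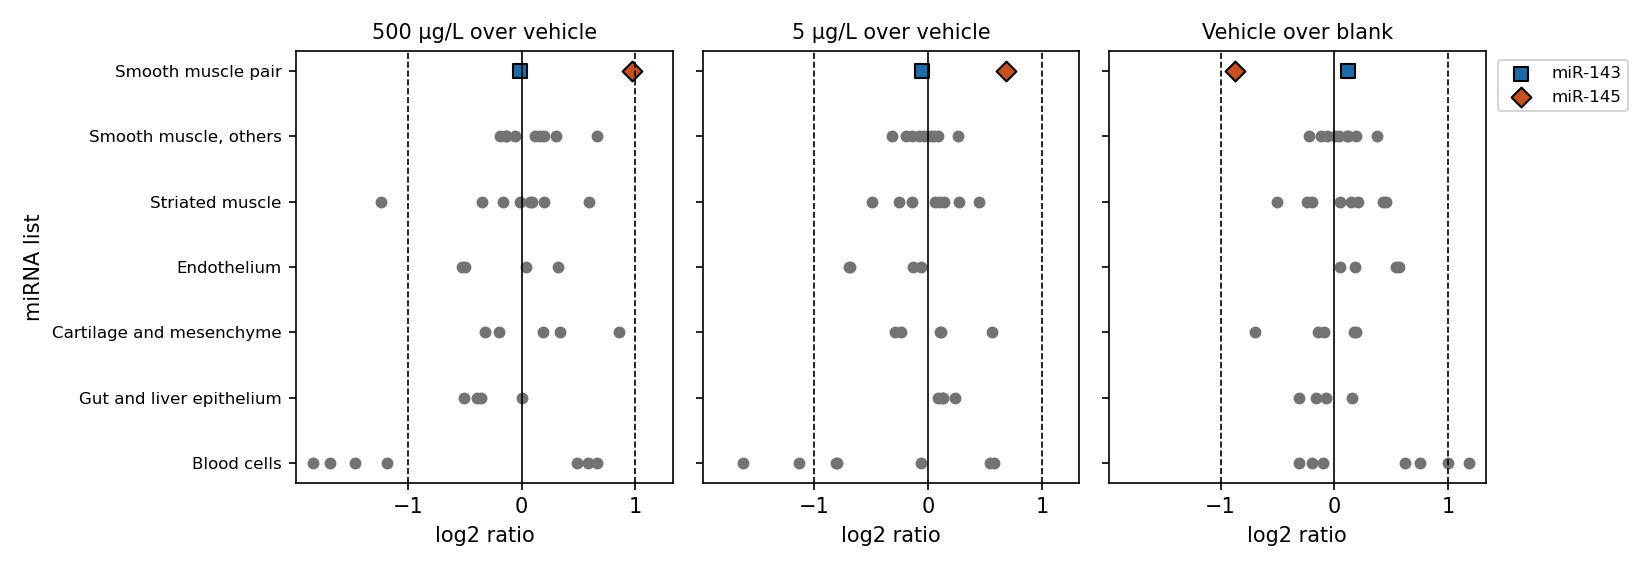
The log2 ratio (horizontal axes) of miR-143 (square), miR-145 (diamond) and the rows of 6 miRNA lists (grey points) for 500 μg/L over vehicle, 5 μg/L over vehicle and vehicle over blank, with dashed lines at 2-fold. miR-145 is to the right of every other smooth muscle row against the vehicle control (the highest is 0.66 at 500 μg/L) and to the left of all of them for vehicle over blank.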

How the data were processed

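Clean reads, selected by the authors on base quality, length and adaptor content, had been aligned to the zebrafish entries of miRBase v21. The authors deposited a signal per miRNA, which is its read count over 1 size factor per library. How reads that map to several entries were counted is not given in the sources used here. From the values, reads were recovered as whole multiples of 1 number per library (largest distance from a whole read 0.00037). Size factors were 0.933 (blank), 1.09 (vehicle), 1.02 (5 μg/L) and 0.947 (500 μg/L).

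Log2 ratios were taken with a pseudocount of 1 over the 234 miRNAs that averaged 10 or more normalized counts (both members passed). A ratio was called beyond 2-fold. No p-value was computed, because each condition had 1 library. The intervals and calls were tested on simulated data that held counting error only. That test does not bear on variation between batches of larvae. The members and lists were chosen with earlier results of these data known. The text names both members, the 3 miRNAs most like each, and entries of 6 lists by miRNA number. Alternatives were pseudocounts of 0.1 and 10, other filters, scalings, thresholds and controls. mir-143 was not matched in the RefSeq table. Sequences were not used here. The calculations used scipy 1.17.1, pandas 2.3.3 and numpy 2.4.6 under Python 3.11.15, and figures were drawn with matplotlib 3.10.9.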

Additional observations from a re-analysis of the deposited data

How the results depend on the processing

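No member passed 2-fold in any of the 6 comparisons. This count of 0 held with pseudocounts of 0.1 and 10, without the filter and with a mean of at least 100. These settings could not change it, since miR-145 averaged 3774 normalized counts and miR-143 averaged 158630. The count also held with both other scalings. Against the vehicle control it held with the mean of both controls too. That setting could not raise the count, since miR-145 was higher in the blank control and its ratios could only fall. Scaling by the median of ratios gave almost the deposited values, with 0.9656 for miR-145 at 500 μg/L over vehicle both ways. At a fold threshold of 1.5 the count was 1 (miR-145) for 500 μg/L over vehicle, for 5 μg/L over vehicle and for vehicle over blank. Counting intervals that left out no difference gave 2 in each comparison, since they pass small ratios of deeply counted miRNAs. With the mean of both controls, an alternative added after the data were seen, miR-145 had log2 ratios of 0.47 at 500 μg/L and 0.18 at 5 μg/L, and miR-143 changed sign to 0.042 and 0.0031. When libraries were scaled by their listed totals, the median over all miRNAs at 5 μg/L against the vehicle shifted to -0.10 on the log2 scale, beside 0.02 before, and that scaling gave miR-145 ratios of 0.89 at 500 μg/L and 0.56 at 5 μg/L. It turned miR-143 at 5 μg/L over the blank control to -0.027. The ratio of miR-143 to miR-145 inside a library did not change when all rows of a number were summed, as each number had 1 row. No paired analysis was possible because each condition had a single library, and for the same reason no replicate could be left out. The reads of miR-145 gave a counting interval 0.14 wide for its log2 ratio at 500 μg/L over vehicle, and spread between larvae could not be measured.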
